A study of Mus musculus with 12 samples.

Results

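The cytosolic ribosome is built from a large and a small subunit, each an rRNA core clothed in ribosomal proteins, and it translates every mRNA of the nucleus. The ribosomal protein genes are transcribed at high and closely matched levels, and many of their mRNAs begin with a stretch of pyrimidines, the terminal oligopyrimidine (TOP) tract, through which mTOR signaling controls their translation. A few family members have a close paralog that can take the place of the parent protein in some ribosomes or that has acquired another use.

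The members described here are the genes whose symbol is Rpl or Rps followed by a number, together with Rplp0, Rplp1, Rplp2 and Rpsa. The Rps6k kinases and symbols with the pseudogene mark -ps were left out, and at least 20 reads summed over 12 libraries were required. Of 26608 genes listed, 84 met this rule. They comprised 46 large subunit genes, 31 small subunit genes, 6 paralogs and Rps19bp1, which fits the symbol rule but encodes a protein that binds RPS19. Among the paralogs, Rps4y2 is annotated by GENCODE as a transcribed processed pseudogene, and its symbol kept it within the rule. Rpl3l (12 reads in all) and Rpl10l (0 reads in all) fell below the minimum, while Rpl39l (156 reads) and Rps4y2 (360 reads) were the members with the fewest reads. Fau and Gnb2l1 (Rack1), which also encode ribosomal proteins under other symbols, were outside the rule and are given beside the members.

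RNA-seq was performed on sorted CD4+ T cells without the YFP that reports FOXP3, from spleens pooled with cervical and inguinal lymph nodes of mice aged 14 weeks, with 1 library per mouse. The 4 WT mice carried the Foxp3Cre allele alone, and 8 Foxp3-Cre Tet2/3 fl/fl mice, which carry floxed Tet2 and Tet3 as well, were split by leukocyte numbers in spleen and lymph nodes into 4 DKO-moderate and 4 DKO-severe mice. All groups therefore share the Cre and YFP driven from Foxp3. The severity groups were set by a measure of the mice's own disease. Since Cre is driven from Foxp3, the floxed alleles are deleted in cells that express or once expressed it. A FOXP3-negative sort holds a mixture of such former Treg cells and conventional CD4+ T cells, whose shares the counts do not give. The paper also reports that most of these cells were naive in WT mice. It found a much lower naive share among CD4+ T cells of DKO mice, above all DKO-severe mice. The groups thus differ in naive against activated or memory cells, and the part of this in the values below was not tested.

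Reads on genes ranged from 29254260 to 42133536 per library. Cd4 stood between 864 and 1368 CPM in the 12 libraries and Foxp3 between 0.130 and 3.10 CPM. The sum of 4 Y-linked genes was 0 CPM in WT 2 and DKO-moderate 2, 0.0265 CPM in DKO-moderate 4 and 0.571 CPM in DKO-severe 3. In all other libraries it was 370 to 556 CPM, so the groups held mice of both sexes. Over the whole gene, Tet3 was 167 to 210 CPM in WT and 87.8 to 102 CPM in DKO-severe libraries, and Tet2 was 43.3 to 62.2 CPM in WT and 56.7 to 65.8 CPM in DKO-severe libraries; reads on the floxed exons were not counted apart. All 10 neutrophil marker genes rose in DKO-severe against WT, with summed levels of 0.0273 to 1.98 CPM in WT, 0.186 to 8.50 CPM in DKO-moderate and 10.1 to 2240 CPM in DKO-severe libraries. The 8 B cell markers summed to 6.81 to 216 CPM in WT, 19.8 to 47.4 CPM in DKO-moderate and 68.3 to 392 CPM in DKO-severe libraries, with Ms4a1, Pax5 and Fcrla each at 0 in 2 WT libraries. In DKO-severe against WT, 1 of the 8 B cell markers (Blk) rose (edgeR adjusted p under 0.05, where 26.6% of all genes tested rose). So did 3 of 7 plasma cell markers (Irf4, Sdc1 and Xbp1, with the other 4 passing in neither direction). The same held for 3 of 8 monocyte and macrophage and 2 of 5 tested erythroid markers. The summed levels of these last 3 lists went from 85.2 to 203 CPM, 16.4 to 207 CPM and 0.144 to 14.8 CPM over WT libraries to 477 to 677 CPM, 103 to 516 CPM and 8.85 to 32.7 CPM over DKO-severe libraries. Of 8 general T cell markers, 4 fell and 1 rose, where 25.9% of all genes tested fell. Their sums were 4504 to 5139 CPM in WT and 3896 to 4391 CPM in DKO-severe libraries.

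Start sites of a few members are shown first, because a TOP tract lies at the 5′ end of the mRNA. RefSeq start-site sequence (GRCm38.p6) was at hand for 63 of the 84 members. The lines below hold 30 bases, 12 before and 18 from the annotated start, and capitals mark a C within 5 bases of the start followed by at least 4 C or T. The first 4 genes fell in DKO-severe libraries and the last 2 rose. The lines are examples only. Rpl5, Rpl11, Rplp0 and Rps19 also fell and had no such tract at any annotated start. Rps24 and Rps27l each have a further annotated start, without a tract, that is not shown. Whether the tract goes with the change was not tested.
Rpl12, chr2:32961700-32961729, plus strand: ggagcaggatccgtCTTTTCggctttcggc
Rps27, chr3:90213631-90213660, minus strand: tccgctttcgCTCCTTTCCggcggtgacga
Rps24, chr14:24490666-24490695, plus strand: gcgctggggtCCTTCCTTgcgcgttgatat
Rps6, chr4:86857350-86857379, minus strand: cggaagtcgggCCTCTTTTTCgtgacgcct
Rps27l, chr9:66946074-66946103, plus strand: ctcctccccgccgCCTCTatcccggaagtt
Rpl7l1, chr17:46782639-46782668, minus strand: aggctgcgcaagcgcagtagctgaagcacc

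Such a tract was found at 29 of the 63 members (46.0%) and at 21.2% of 27025 genes with a start-site sequence. The letters CCGGAAG on either strand, the core of a site for ETS-family factors, stood within the 300 bases around the start of 26 of the 63 (41.3%) and of 9.93% of all genes. AAGATGG on either strand, the core of the YY1 site, was there in 10 of the 63 (15.9%) and in 7.28% of all genes. These are matches of letters, and annotated starts can lie some bases from the true ones.

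To ask how much of the mRNA pool the family made up in each mouse, reads on the 84 genes were summed. They took 12.6%, 12.4%, 11.8% and 11.7% of the reads on genes in WT mice 1 to 4. In DKO-moderate mice the shares were 10.7%, 8.89%, 10.6% and 12.6%, and in DKO-severe mice 8.10%, 8.11%, 8.20% and 7.39%. Every DKO-severe library lay below every WT and DKO-moderate library, whereas DKO-moderate 4 lay within the WT range and DKO-moderate 2 came nearest to the DKO-severe libraries.

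WT libraries averaged 12.1% ± 0.440, the DKO-moderate libraries 10.7% ± 1.52 and the DKO-severe libraries 7.95% ± 0.376 (SD over 4 mice each). The DKO-severe mean was 65.6% of the WT mean. The 95% Wilson interval of a single library's share was at most 0.0111 percentage points to either side, for counting error only. Both subunits took part. Large subunit genes held 6.69% ± 0.187 of reads in WT and 4.44% ± 0.196 in DKO-severe libraries, and small subunit genes 5.39% ± 0.256 and 3.46% ± 0.179 (SD, n = 4 each). Small subunit reads per large subunit read came to 0.805 ± 0.0185 for WT, 0.799 ± 0.00611 for DKO-moderate and 0.780 ± 0.00637 for DKO-severe mice (SD, n = 4 each), with WT 4 at 0.781 inside the DKO-severe range of 0.770 to 0.784. The large subunit reads of WT 4 include 37394 on Rpl37a, which had 5686 to 6691 in the other WT libraries. The ratio was not taken without that gene.

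**Figure D1:**
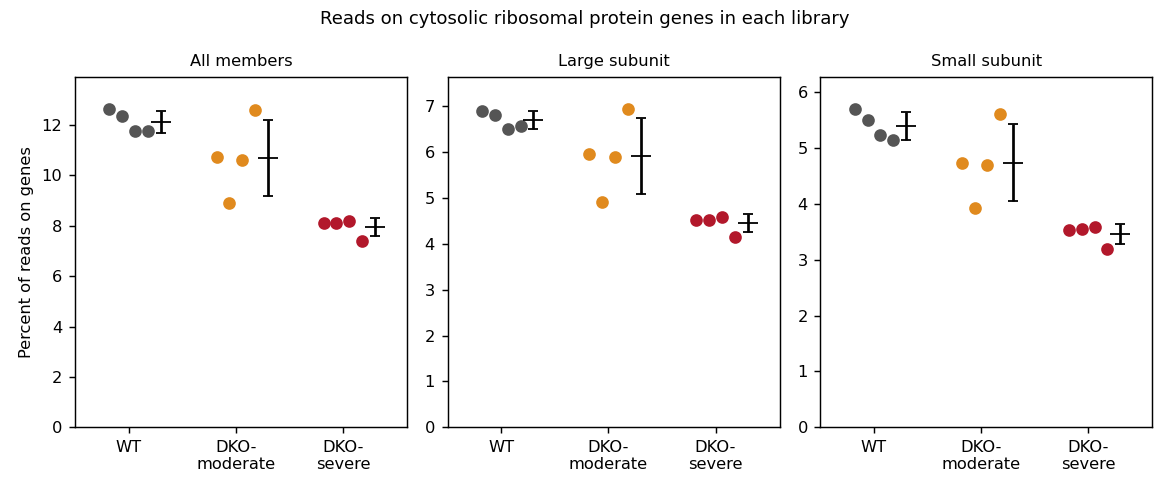
Percent of all reads on genes that fell on the 84 members, the 46 large subunit genes and the 31 small subunit genes, with 1 point per library (4 mice per group) and the mean with SD beside each group. The 4 DKO-severe libraries sit between 7.39% and 8.20%, below all WT libraries (11.7% to 12.6%), and the DKO-moderate libraries spread from 8.89% to 12.6%.

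Comparing DKO-severe with WT mice asks what distinguishes the advanced disease. Nearly the whole family was lower. Of the 84 members, 78 fell and 2 rose at an adjusted p under 0.05 (edgeR's quasi-likelihood test, Benjamini-Hochberg over 16035 genes), where 25.9% of all genes tested fell and 26.6% rose. The median log2 fold change was -0.81 over the members and -0.01 over all genes tested. By subunit, 45 of 46 large subunit genes and 30 of 31 small subunit genes fell, with medians of -0.77 and -0.87. In bulk RNA, fewer cells that express these genes and less of their RNA per cell cannot be told apart. The levels are also relative to the other RNA of each library. More of that other RNA per cell cannot be told apart from these either, since absolute amounts were not measured. The levels of 77 members in DKO-severe libraries lay wholly below those in WT libraries, as for 27.3% of all genes tested.

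When terms for the neutrophil and B cell markers entered the fit, 49 members fell and 0 rose (5.53% of all genes fell and 13.6% rose in that fit), with a median log2 fold change of -0.83 and 1 member higher at an unadjusted p under 0.05. The 2 DKO-severe libraries with the least neutrophil marker RNA, DKO-severe 4 (10.1 CPM) and DKO-severe 3 (23.7 CPM), had member shares of 7.39% and 8.20%, the lowest and the highest of their group. The part of these markers in the fall of the members was not tested. Among the members named by role or by size of change, the DKO-severe against WT calls of Rplp0, Rpl7, Rpl10, Rpl10a, Rpl38, Rpl37a, Rpsa, Rpl3, Rpl22, Rpl36al, Rpl39l, Rps27l and Rpl7l1 ended in the fit with the added terms. Standard errors grew in that fit. Rpl36al went from -0.43 ± 0.12 to -0.51 ± 0.23, Rps27l from 1.16 ± 0.19 to 1.02 ± 0.33 and Rpl7l1 from 0.26 ± 0.10 to 0.12 ± 0.15. Summed neutrophil markers were at most 1.98 CPM in WT and at least 10.1 CPM in DKO-severe libraries. The fit can therefore hardly separate these terms from the group.

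**Figure D2:**
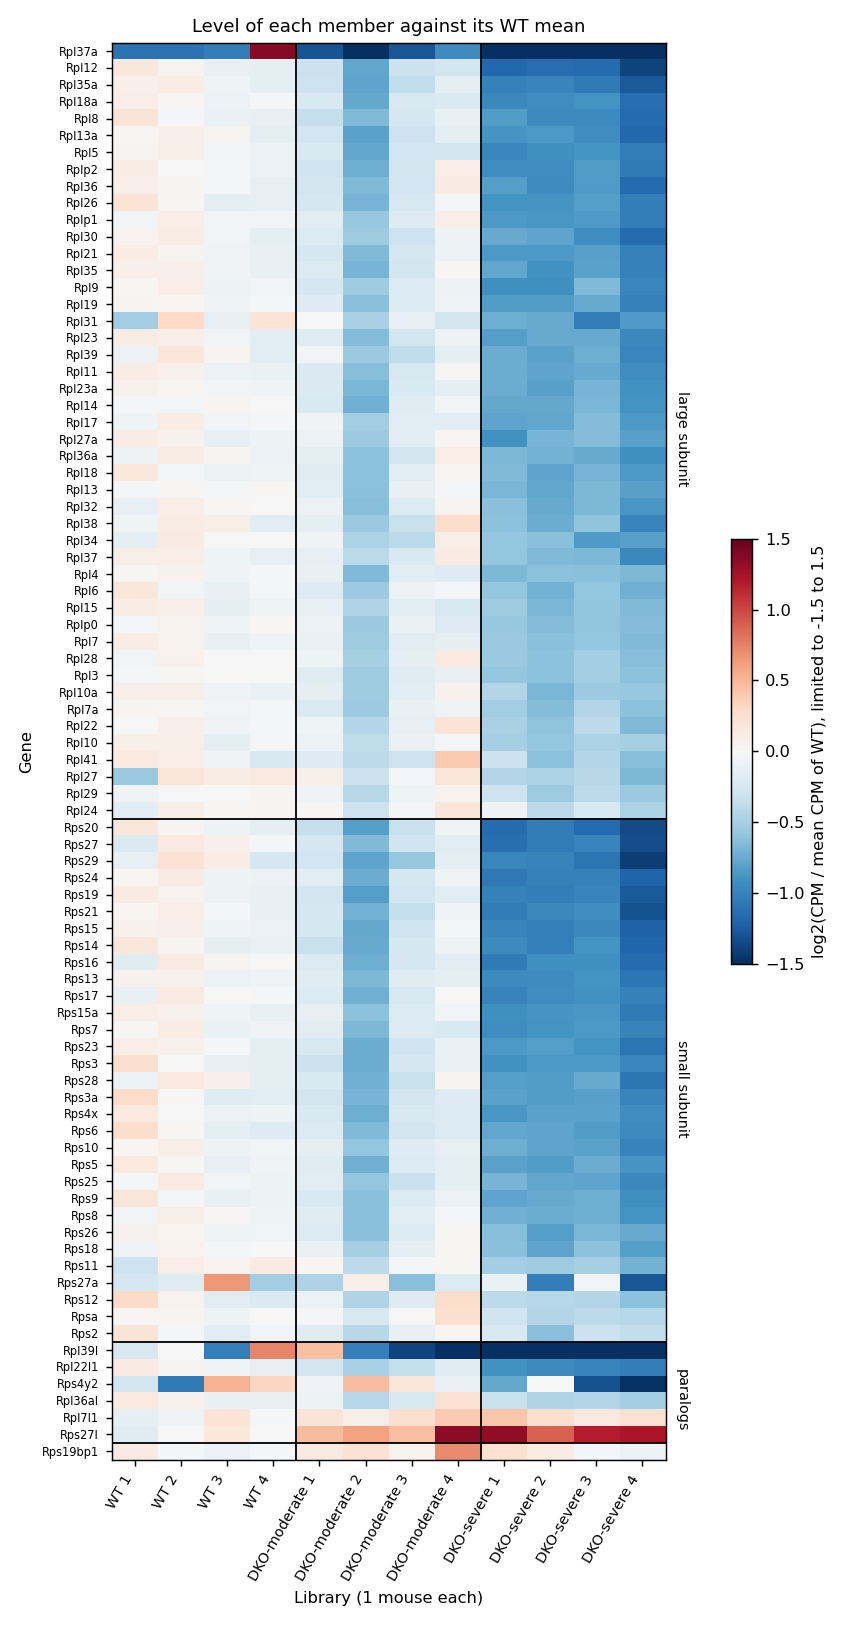
Each row is 1 of the 84 members and each column 1 library, and color gives log2 of the library's CPM over the mean CPM of the 4 WT libraries, limited to -1.5 and 1.5. Rows are grouped into large subunit, small subunit, paralogs and Rps19bp1. The DKO-severe columns are lower over nearly all rows, DKO-moderate 2 is the lowest DKO-moderate column, and Rps27l runs the other way.

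Rplp0, the base of the ribosomal stalk that recruits elongation factors, had 4098, 4314, 3980 and 4247 CPM in the WT mice, 3906, 2829, 3894 and 3628 CPM in the DKO-moderate mice and 2815, 2651, 2767 and 2648 CPM in the DKO-severe mice. The DKO-severe values lay below all others, and the fall against WT was -0.61 ± 0.10 (log2 fold change ± SE, edgeR adjusted p = 0.000381). Rplp1 and Rplp2, the acidic stalk proteins, gave -0.91 ± 0.12 (edgeR adjusted p = 8.75e-05) and -0.94 ± 0.14 (edgeR adjusted p = 0.000198). Rpl12, which sits at the foot of the stalk, had 3657, 3387, 3019 and 2982 CPM in WT, 2614, 1894, 2617 and 2690 CPM in DKO-moderate and 1441, 1482, 1469 and 1241 CPM in DKO-severe libraries. The 3 groups did not overlap, and Rpl12 fell 2.32-fold from WT to DKO-severe (-1.21 ± 0.12, edgeR adjusted p = 1.6e-05).

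Rpl5 and Rpl11 form a particle with 5S rRNA that binds MDM2 and so restrains p53 degradation. Rpl5 was 2781, 2877, 2637 and 2540 CPM in WT, 2314, 1572, 2216 and 2237 CPM in DKO-moderate and 1375, 1437, 1453 and 1324 CPM in DKO-severe libraries, again with no overlap among the groups (DKO-severe against WT -0.95 ± 0.11, edgeR adjusted p = 4.31e-05). Rpl11 went from 1279 ± 96.0 CPM in WT to 732 ± 43.8 CPM in DKO-severe libraries (SD, n = 4 each). This was a fall of -0.81 ± 0.12 on the log2 scale (edgeR adjusted p = 0.00021).

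In the small subunit, Rps20, Rps27, Rps29, Rps24, Rps19 and Rps21 showed the largest falls. Rps20, a protein of the subunit's head, had 1617, 1489, 1368 and 1299 CPM in WT, 1137, 813, 1146 and 1379 CPM in DKO-moderate and 650, 699, 643 and 568 CPM in DKO-severe libraries. DKO-moderate 4 reached into the WT range, and no DKO-severe library did (-1.17 ± 0.14, edgeR adjusted p = 4.51e-05). Rps19, mutated in many families with Diamond-Blackfan anemia, fell from 1586 ± 118 to 755 ± 61.5 CPM (SD, n = 4 each), or -1.07 ± 0.13 (edgeR adjusted p = 4.96e-05). Rps6, the target of the S6 kinases, fell from 1921 ± 287 to 1075 ± 59.4 CPM (SD, n = 4 each), or -0.84 ± 0.13 (edgeR adjusted p = 0.00019).

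Rpsa and Rps2 were among the least lowered small subunit genes. Rpsa, also known as the laminin receptor, had 4125, 4183, 3842 and 4089 CPM in WT, 3971, 3444, 4080 and 4789 CPM in DKO-moderate and 3287, 2994, 3096 and 3016 CPM in DKO-severe libraries. WT and DKO-moderate overlapped, and the fall in DKO-severe was -0.39 ± 0.10 (edgeR adjusted p = 0.00554). That call also ended with library size alone (-0.21 ± 0.09, edgeR adjusted p = 0.0810). Rpl10a and Rpl38, proteins that have been studied for favoring the translation of certain mRNAs, fell by 0.56 ± 0.11 and 0.73 ± 0.16 on the log2 scale (edgeR adjusted p = 0.00157 and 0.00225).

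Of the members, 4 passed in neither direction. Rpl24 gave -0.28 ± 0.12 (edgeR adjusted p = 0.0593), Rps19bp1 0.07 ± 0.15 (edgeR adjusted p = 0.722) and Rps4y2 -0.77 ± 0.42 at about 1 CPM (edgeR adjusted p = 0.141). Rps27a, which encodes ubiquitin fused to a small subunit protein, varied within each group. It had 657, 690, 1228 and 543 CPM in WT, 563, 829, 506 and 675 CPM in DKO-moderate and 728, 378, 760 and 320 CPM in DKO-severe libraries, so that the groups overlapped (-0.51 ± 0.31, edgeR adjusted p = 0.188). Of its transcript's windows of 150 bases, 66.0% occur exactly in a transcript of another gene.

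Among members averaging at least 5 CPM in WT, Rpl37a had the largest fitted fall (-1.93 ± 0.50, edgeR adjusted p = 0.00689), and 1 library set its size. It was 184, 183, 192 and 1022 CPM in WT, 161, 132, 162 and 205 CPM in DKO-moderate and 103, 104, 115 and 93.4 CPM in DKO-severe libraries. Without WT 4 the log2 fold change was -0.85 ± 0.13 (edgeR adjusted p = 0.000402), near the median of the family. DESeq2 gave no adjusted p for Rpl37a. The paralog Rpl39l, at about 1 CPM or below, gave -3.11 ± 0.84 (edgeR adjusted p = 0.00862). Rpl31 and Rpl27, singled out after their values were seen, were low in WT 1 (618 and 495 CPM) against 814 to 1088 and 786 to 821 CPM in the other WT libraries.

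The DKO-moderate group addresses whether the change is already present at the earlier stage. Against WT, 79 of 84 members had a lower fitted level and the median log2 fold change was -0.26 (all genes tested 0.00), but only 3 fell and 1 rose at an adjusted p under 0.05 (edgeR), where 4.74% of all genes tested fell and 12.3% rose. The 3 were Rpl12 (-0.41 ± 0.12, adjusted p = 0.0369), Rpl5 (-0.38 ± 0.11, adjusted p = 0.0399) and the paralog Rpl22l1 (-0.32 ± 0.08, adjusted p = 0.0177). DESeq2 called 29 lower (8.76% of all genes) and limma voom with quality weights 38 lower (8.34% of all genes).

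The count turned on single mice. Without DKO-moderate 4, 32 members fell (4.21% of all genes), and without WT 1 none fell or rose (1.88% of all genes fell), with 19 lower and 1 higher at an unadjusted p under 0.05. Without WT 2 Rps27l alone passed, as a rise (2.04% of all genes fell), and without DKO-moderate 2 there was 1 fall and 1 rise (2.13% of all genes fell). DKO-moderate 2 was the lowest of its group for 76 of 77 large and small subunit genes, and DKO-moderate 4 the highest for 65. Both had almost no Y-linked RNA (0 and 0.0265 CPM), against 556 and 461 CPM in DKO-moderate 1 and 3. The median log2 ratio to the WT mean over those 77 genes was -0.19, -0.63, -0.23 and -0.07 in DKO-moderate mice 1 to 4. In DKO-severe mice it was -0.78, -0.80, -0.75 and -0.96, and in WT mice 0.05, 0.07, -0.05 and -0.07. DKO-moderate 2 thus lay closer to the DKO-severe mice than to the rest of its group. Summed neutrophil markers were 0.186, 6.46, 0.298 and 8.50 CPM in DKO-moderate mice 1 to 4, and their part in these values was not tested.

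Within the Tet2/3-deficient mice, DKO-severe against DKO-moderate gave 72 of 84 members lower and 0 higher at an adjusted p under 0.05 (edgeR), where 10.7% of all genes tested fell and 9.41% rose. None was higher at an unadjusted p under 0.05 or by DESeq2, and limma voom called 1 higher. The median log2 fold change was -0.55 (all genes tested -0.03). The largest falls were Rps20 (-0.81 ± 0.14), Rpl12 (-0.80 ± 0.12), Rps24 (-0.79 ± 0.13), Rps27 (-0.78 ± 0.12) and Rps21 (-0.73 ± 0.13), with edgeR adjusted p from 0.00354 to 0.00526. With terms for neutrophil and B cell markers, the fitted median was -0.53 and 1 member fell (0.118% of all genes fell in that fit), and at an adjusted p under 0.01 the edgeR count was 36.

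**Figure D3:**
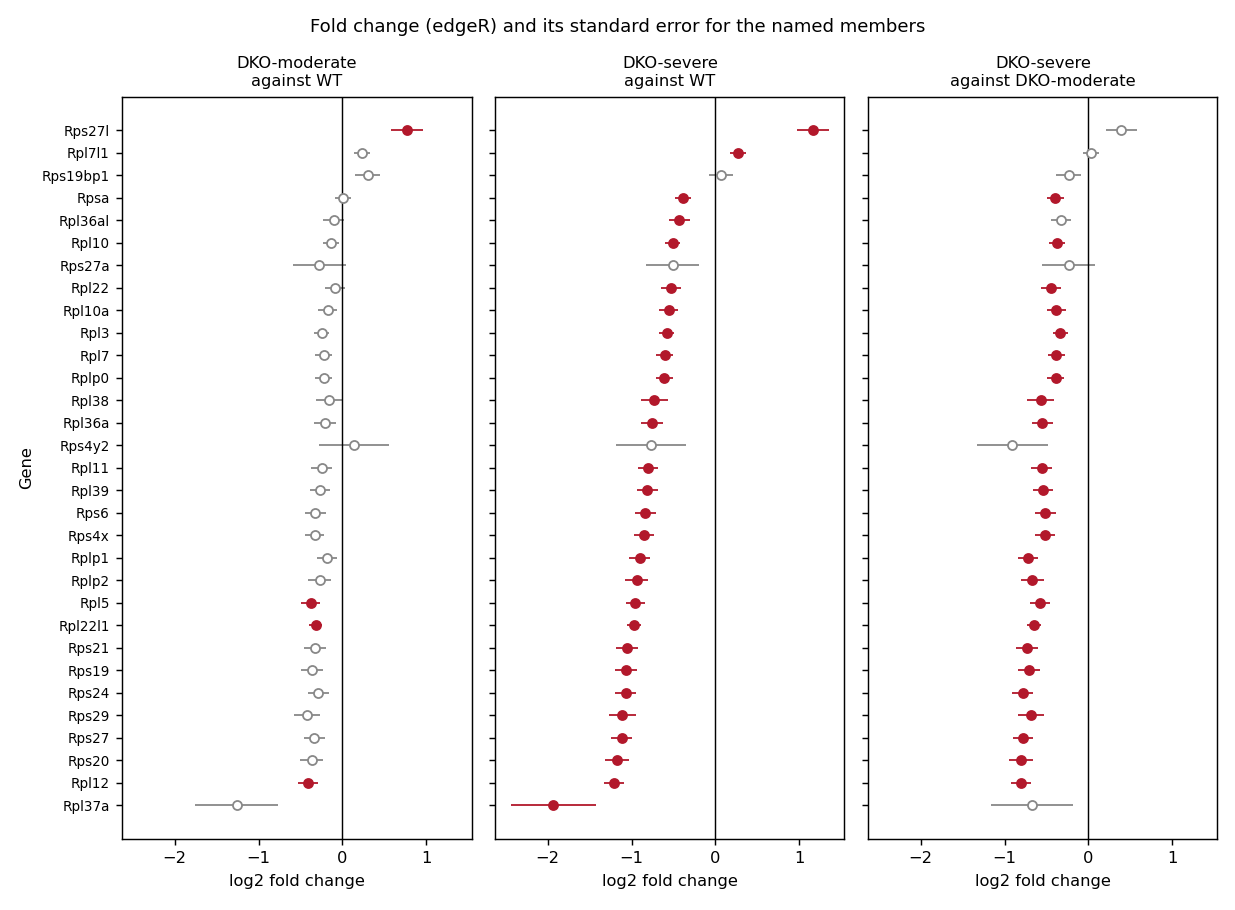
Log2 fold change from edgeR with its standard error for the members named by role or by size of change, in the 3 comparisons. Filled red points passed an adjusted p of 0.05 and open gray points did not. Rpl39l, at about 1 CPM or below, is left out. In DKO-severe against WT most points lie between -1.21 and -0.39, and Rps27l stands at 1.16.

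To see which members moved apart from the family, reads on the 84 members were used as the library size. The family median is then near 0 by construction (-0.01), and other genes shift upward. In DKO-severe against WT, 15 members were lower and 18 higher relative to the family (4.57% and 63.9% of all genes in that fit, edgeR adjusted p under 0.05), and 57 of 77 large and small subunit genes stayed within 0.25 of 0 on the log2 scale. Of the 15, 10 were small subunit and 4 large subunit genes. Rpl12 (-0.42 ± 0.07), Rps20 (-0.38 ± 0.08) and Rps27 (-0.33 ± 0.09) were among them. Of the 18, 11 were large subunit genes and 3 small subunit genes, including Rpl24 (0.51 ± 0.10), Rps2 (0.42 ± 0.10), Rpsa (0.40 ± 0.07) and Rpl3 (0.21 ± 0.07), the last a protein near the peptidyl transferase center. These are differences in a share, so a rise relative to the family includes genes whose level fell.

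In DKO-severe mice, shorter coding sequences tended to go with larger falls. Across the 77 large and small subunit genes, Spearman's rank correlation between the DKO-severe against WT fold change and the coding length was 0.30 (a description across genes, which share libraries and are not replicates), and it was -0.05 across 12767 other protein-coding genes. Over the same 77 genes it was 0.02 in DKO-moderate against WT and 0.47 in DKO-severe against DKO-moderate, comparisons that share libraries with the first. The 55 subunit genes with up to 600 coding bases had a median log2 fold change of -0.86 and the 22 longer ones -0.69. Among 453 other genes of that short length with a mean of at least 50 CPM, the median was 0.02 and 23.8% fell. The same rank correlation between the fold change and the share of a member's 150-base windows found in other genes was 0.26. Summed over members, 257 of 279 such other genes were annotated pseudogenes. That share ranged up to 98.0% (Rps27), and 15 of 84 members had none. The authors kept only read pairs that aligned to 1 place in the genome, so a pair lying wholly in such a window could be lost where the copy is unspliced and identical. The part of this in the values was not tested.

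**Figure D4:**
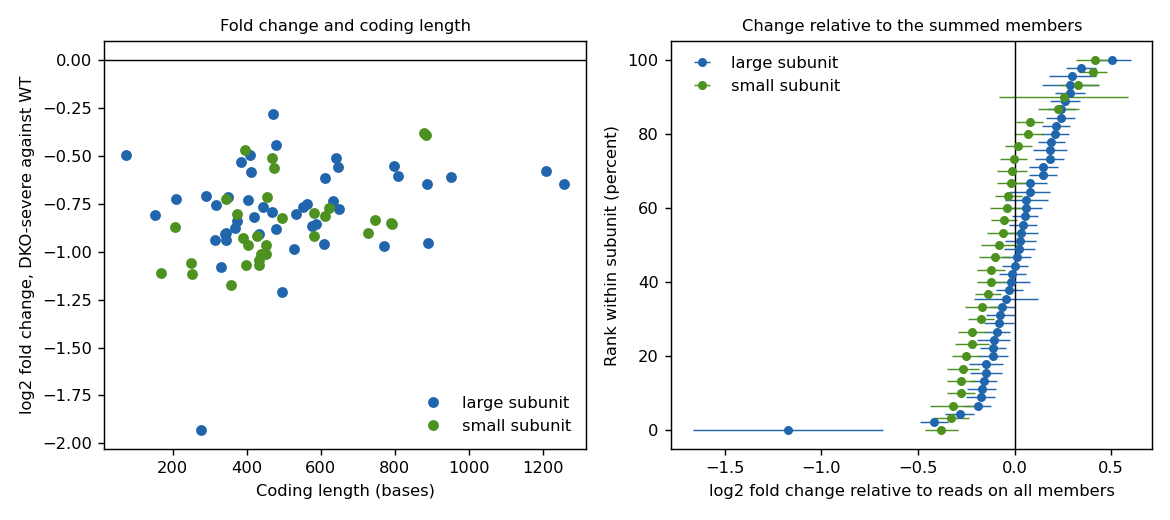
Left, coding length in bases against log2 fold change of DKO-severe against WT for 46 large and 31 small subunit genes. Right, log2 fold change with standard error when reads on all members serve as library size, ordered within each subunit. All 77 genes lie below 0 on the left, the lowest being Rpl37a at -1.93, and on the right 57 of them lie within 0.25 of 0.

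The paralogs did not move as a block. Rps27l, a paralog of Rps27 known as a p53 target, was 21.1, 23.8, 26.5 and 23.8 CPM in WT, 33.0, 36.2, 32.7 and 60.5 CPM in DKO-moderate and 59.9, 43.9, 53.9 and 55.6 CPM in DKO-severe libraries. Every DKO library exceeded every WT library. The log2 fold change was 1.16 ± 0.19 in DKO-severe (edgeR adjusted p = 0.0003) and 0.77 ± 0.19 in DKO-moderate against WT (edgeR adjusted p = 0.0145). With the neutrophil and B cell terms the DKO-severe value was 1.02 ± 0.33 (edgeR adjusted p = 0.0526). No window of the Rps27l transcript occurs in another gene. Its parent Rps27 went from 1988 ± 202 to 917 ± 92.7 CPM (SD, n = 4 each), and Rps27l made up 1.19% ± 0.0734 of the pair's reads for WT, 2.51% ± 0.670 for DKO-moderate and 5.55% ± 1.01 for DKO-severe mice (SD, n = 4 each).

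Rpl7l1, a paralog of Rpl7 that serves in ribosome assembly, had 71.4, 75.9, 91.3 and 77.1 CPM in WT and 105, 94.2, 87.4 and 92.2 CPM in DKO-severe libraries. The ranges overlapped and the rise was 0.26 ± 0.10 (edgeR adjusted p = 0.0349), a call that ended with the neutrophil and B cell terms, with the replicate block, at an adjusted p of 0.01 and without WT 1, WT 2, WT 4 or DKO-severe 1. Rpl22l1, whose product can replace RPL22, also fell. It was 247, 234, 220 and 209 CPM in WT, 187, 163, 177 and 200 CPM in DKO-moderate and 121, 117, 115 and 111 CPM in DKO-severe libraries. The 3 groups did not overlap (DKO-severe against WT -0.97 ± 0.08, edgeR adjusted p = 6.84e-06, Rpl22 -0.53 ± 0.12). Rpl36al fell by 0.43 ± 0.12 and its parent Rpl36a by 0.76 ± 0.13 on the log2 scale, and the Rpl36al call ended with library size alone (-0.25 ± 0.12, edgeR adjusted p = 0.108).

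The share of the paralog in each pair was tested over 6 pairs and 3 comparisons, 18 exact permutation tests in all (two-sided, 4 against 4 libraries). The smallest p this design allows is 0.0286, which became 0.0571 after Benjamini-Hochberg adjustment, so no pair passed 0.05. Of the 18 tests, 9 reached it before adjustment. In DKO-severe against WT these were Rps27l, Rpl7l1 (3.51% ± 0.587 to 6.18% ± 0.400), Rpl36al (27.2% ± 2.25 to 31.9% ± 0.866), Rpl22l1 (29.2% ± 1.38 to 23.4% ± 1.32) and Rpl39l. Rps4y2 against Rps4x gave p = 1 in the exact test. Rpl39l, at 0.546, 0.645, 0.316 and 1.07 CPM in WT, had 0, 2, 7 and 2 reads in the DKO-severe libraries, where 0 reads allow up to 0.103 CPM.

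**Figure D5:**
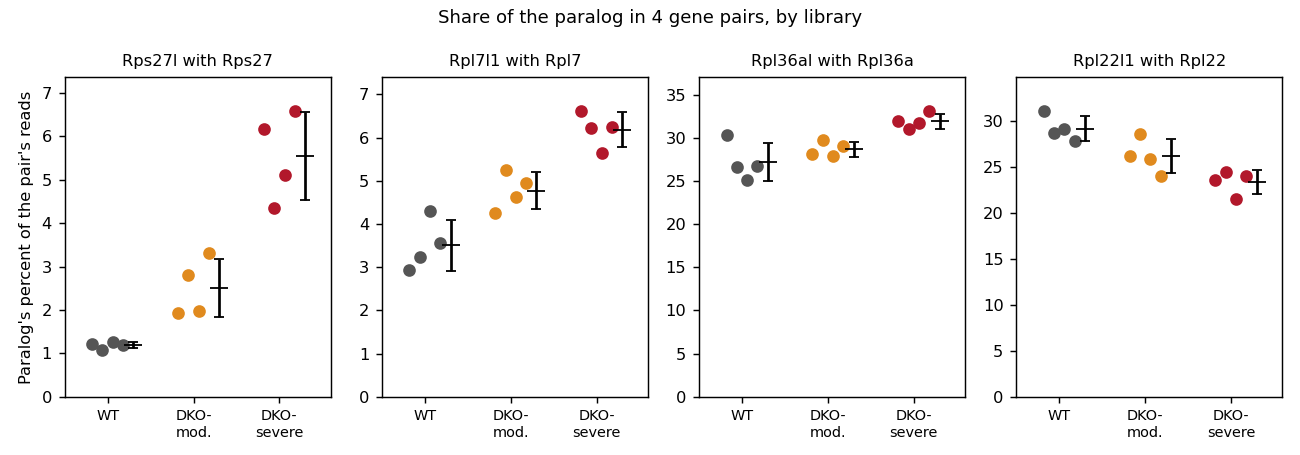
Percent of a pair's reads that fell on the paralog in each library, for Rps27l, Rpl7l1, Rpl36al and Rpl22l1, with the mean and SD of 4 libraries beside each group. Rps27l goes from 1.19% in WT to 5.55% in DKO-severe libraries and Rpl22l1 goes from 29.2% to 23.4%.

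Genes that serve the ribosome or have TOP mRNAs were examined as lists. Their counts are to be read against the 25.9% of all genes that fell and the 26.6% that rose in DKO-severe against WT. Fau and Gnb2l1, ribosomal genes outside the rule, both fell in DKO-severe against WT (-0.79 ± 0.12 and -0.57 ± 0.10). Of 18 further genes with TOP mRNAs, not all of them parts of the translation machinery, 12 fell and 0 rose. Among the falls were Eif4a2, an RNA helicase of initiation (-1.23 ± 0.17), and Tpt1 (-0.71 ± 0.10). At an unadjusted p under 0.05 there were also 0 rises, and DESeq2 gave 1. The median was -0.30. Of 50 ribosome biogenesis factors, 25 fell and 1 rose, with Mdn1, the giant AAA ATPase of large subunit maturation, at -1.03 ± 0.22 and Wdr12 at 0.72 ± 0.10. Of 11 RNA polymerase I genes, 7 fell and 0 rose, led by Taf1a (-0.75 ± 0.15), with 0 rises also at an unadjusted p under 0.05 and by DESeq2 and limma voom.

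Of 20 genes of cap-dependent initiation and its control, 8 fell and 3 rose. Eif4ebp1, the repressor of eIF4E that mTOR phosphorylates, rose by 1.31 ± 0.24, and Pdcd4, an inhibitor of eIF4A, fell by 1.20 ± 0.24 on the log2 scale. Of 76 genes of the mitochondrial ribosome, 12 fell and 5 rose, 59 passed in neither direction, and the median was -0.05, so that its shares of falls and rises were both below those of all genes tested. In DKO-moderate against WT, 0 of the 18 TOP genes, 0 of the 11 RNA polymerase I genes and 2 of the 50 biogenesis factors fell, against 4.74% of all genes (at an unadjusted p under 0.05, 4 TOP and 4 RNA polymerase I genes, by DESeq2 3 and 0, by limma voom 1 and 0). Of the biogenesis factors 2 also rose, Wdr12 (0.45 ± 0.10) and Nop10 (0.37 ± 0.11), and Eif4ebp1 rose by 0.82 ± 0.24, against 12.3% of all genes. In DKO-severe against DKO-moderate, 4 of 18, 3 of 11 and 16 of 50 fell, against 10.7% of all genes. All values in these lists are log2 fold changes with SE and calls from edgeR at an adjusted p under 0.05.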

How the data were processed

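RNA was extracted from sorted CD4+ YFP(FOXP3)- T cells of 12 mice and sequenced from directional libraries. The authors deposited raw read counts per gene, 1 library each. They aligned reads to mm10 with STAR 2.7.11, kept those with 1 position, counted them with HTSeq on the reverse strand and tested with DESeq2 (deepTools 3.5.1 made tracks). Records not assigned to a gene (18.5% to 23.7%) were left out of library sizes. Genes whose reads over a condition's libraries came to 10 or more (16035) were fitted with edgeR 4.0.16 (TMM factors, quasi-likelihood, all 12 libraries, R 4.3.3), and p-values were adjusted by Benjamini-Hochberg. CPM are TMM-scaled. All 84 members passed the filter. DESeq2 1.42.0 and limma 3.58.1 were run as alternatives. Coordinates and lengths came from GENCODE on GRCm38, start-site sequence from RefSeq. Exact permutation tests used scipy 1.17.1. The model was also run on simulated counts with the same dispersion for every gene and a small random set of genes changed. That setting holds no family that shifts as a whole, so it does not bear on such a shift.

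The members, the lists and the tests were chosen with earlier results of these data known. Genes were named by role, or as the 5 largest rises and 5 largest falls per comparison among members past the threshold whose higher group averaged 5 CPM or more. No 2 libraries agreed within sampling noise (chi-square per degree of freedom at least 21.6). The labels give only group and replicate number. Litters, sort days and sequencing batches were not given, so ties of that kind among libraries are unknown. Alternatives covered scaling, filter, tool, covariates, threshold and each library left out.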

Additional observations from a re-analysis of the deposited data

Results flagged for a closer look

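In 13 of 123 groups of 4 libraries examined (members named above, read shares and paralog shares), 1 library stood apart by Dixon's criterion. Chance flags about 1 group in 20. DKO-moderate 2 accounted for 6 of them, as the low library of its group, for Rpl12 (1894 CPM), Rpl3 (1676 CPM), Rpl5 (1572 CPM), Rpl7 (1513 CPM), Rps4x (1964 CPM) and Rps6 (1215 CPM). DKO-severe 4 was low for the share of all members (7.39%), the large subunit (4.15%), the small subunit (3.20%) and Rplp1 (1399 CPM). Rpl37a was high in WT 4 (1022 CPM), Rplp1 was high in WT 2 (3095 CPM) and Rps27l was high in DKO-moderate 4 (60.5 CPM).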

How the results depend on the processing

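The main counts of members past the threshold were 80 in DKO-severe against WT, 4 in DKO-moderate against WT and 72 in DKO-severe against DKO-moderate. Terms for neutrophil and B cell genes gave 49, 2 and 1, and the cause was not tested. With reads on the members as library size, a different quantity, the counts were 33 (18 higher, 15 lower), 4 (all higher) and 10 (6 higher, 4 lower), with medians of -0.015, -0.00042 and -0.012. For DKO-moderate against WT, DESeq2 gave 30, limma voom 40, and 2 came from only the libraries of both groups, from the term for Y-linked transcripts and from the replicate block. Replicate numbers did not pair the samples (same-number correlations of deviations from -0.27 to 0.21, median -0.03), and the block gave 79 and 64 in the other comparisons. An adjusted p under 0.01 left 74, 0 and 36. Leaving out 1 library at a time gave 77 to 81, 0 to 33 and 50 to 75, with medians from -0.83 to -0.73, -0.34 to -0.15 and -0.65 to -0.43. Without WT 2, DKO-moderate against WT had 1 call, a rise. Library size alone moved the median of DKO-severe against WT to -0.62 while the median of all genes moved to 0.18. Read shares with unassigned records in the total were 9.46%, 8.47% and 6.38% in WT, DKO-moderate and DKO-severe libraries. Without the 10 most abundant other genes the WT share was 12.8%. Shares with 1 library left out were 11.96% to 12.25%, 10.1% to 11.3% and 7.87% to 8.14%. Per base of exon, 0 paralog pairs passed, as in the main test. Dividing each gene by a fixed length keeps the order of the libraries, so this was not a separate check. With 1 library left out the exact test cannot go below 0.0571. Of the gene-level values named, 2133 kept their side of the threshold and their direction, 129 no longer passed and 39 newly passed. The designs are limited by 4 mice per group.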
